A study of Danio rerio with 23 samples.

Results

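The constitutive proteasome subunits were described in bulk RNA-seq libraries of zebrafish retinae after light-induced retinal damage (LIRD) and of control retinae (CTRL). Members were taken by symbol: every gene of the count table named psma, psmb, psmc or psmd followed by a digit, regardless of case, with the immune forms psmb8 to psmb13 left out. The rule gave 40 of the 25281 genes in the table, and all 40 passed the filter on low counts. The core particle held 17 of them, 10 psma and 7 psmb genes, and the regulatory particle held 23, 8 psmc and 15 psmd genes. The symbol psma6 stood on a pair of genes and so did psmd11, so these are given with their Ensembl identifiers.

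The proteasome degrades proteins tagged with ubiquitin. Its barrel-shaped core particle has outer rings of alpha subunits (psma), which form a gate, and inner rings of beta subunits (psmb), some of which cut the protein chain. The regulatory particle sits on the barrel: its psmd subunits bind ubiquitin and remove it, and its psmc subunits are ATPases that unfold the substrate and push it into the core. Photoreceptors, which make and renew large amounts of visual protein, depend on this machinery, and in mammals the subunit genes are known to be switched on together when proteasome activity is blocked.

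The study asked how the retina responds to phototoxic damage, and the table held 8 LIRD libraries (replicates 1, 2, 4, 5, 6, 9, 10 and 11) and 9 CTRL libraries (replicates 1, 2, 3, 4, 5, 6, 8, 10 and 11). The sample labels describe LIRD retinae of adult fish after white light of 15000 lux for 24 h, dissected right away, and CTRL retinae of fish under standard light, without drugs in either group. The paper's methods describe pigmented larvae exposed to bright light and left to recover in the dark for days before dissection, and name as stocks Tg(fli:gal4;UAS:mCherry) fish and TU wild types. The stage, exposure and interval behind these libraries therefore cannot be told apart from the sources used here, and no line is assigned to a library. The labels call the libraries biological replicates of animals and the paper pools retinae, so what a library holds is not settled, and p-values measure the spread between these libraries. The paper left out samples that stood apart from their replicates by expression, so this spread may be that of a selected set. In the library names the index numbers alternate between the groups for replicates 1 and 2 and run group by group for the other 13 libraries. These are called the first and second library series here, a split inferred from the numbers, since no label names a series.

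Total counts lay between 97506021 and 150347385 in LIRD and between 70932504 and 144932681 in CTRL libraries. No library was short of reads for these genes, the lowest count of any member being 121 for psma6l. LIRD replicates 5 and 11 were close to each other in all genes, and so were CTRL replicates 3 and 11, with a chi-square per degree of freedom of 11.94 and 14.99, against 73.75 for the next closest pair of a group. Both pairs differed by more than counting noise, as repeat libraries of 1 sample also can, so whether they are separate samples cannot be told apart. All 17 libraries were kept. With each pair added up 0 of 40 members passed the test for differential expression, where 5 of all 22529 genes did. The median log2 fold changes of the members were then 0.39 for the core and 0.25 for the regulatory particle. Retinal markers such as rho and crx were present in every library. Levels are read counts scaled to library size with TMM factors (CPM), and because no transcript lengths were used, levels were compared between libraries and not between genes.

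No member differed between LIRD and CTRL retinae by the thresholds used for a differentially expressed gene (DEG), a change of more than 1.5-fold with an FDR under 0.05 in edgeR's quasi-likelihood test. Among all 22503 genes tested, 9 were DEGs (0.0400%). At an unadjusted p under 0.05, 0 of 40 members were higher and 0 were lower, against 4.90% of all genes higher and 2.74% lower, and DESeq2 and limma-voom also gave 0 in each direction. Leaving out 1 library gave 8 members higher at that p without LIRD replicate 6, 5 without LIRD replicate 10, and 1 each without LIRD replicate 5, LIRD replicate 11 or CTRL replicate 10. In those fits 7.14%, 7.67%, 5.73%, 5.91% and 5.73% of all genes were higher at that p, in the same order. The fitted log2 fold change was above 0 for 38 of 40 members, against 53.8% of all genes, and for 34 to 40 members with each library left out. The exceptions were psmd1 and psmc3ip. The smallest FDR of any member was 0.697. In no member did the groups separate without overlap, which 0.0711% of all genes did.

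**Figure D1:**
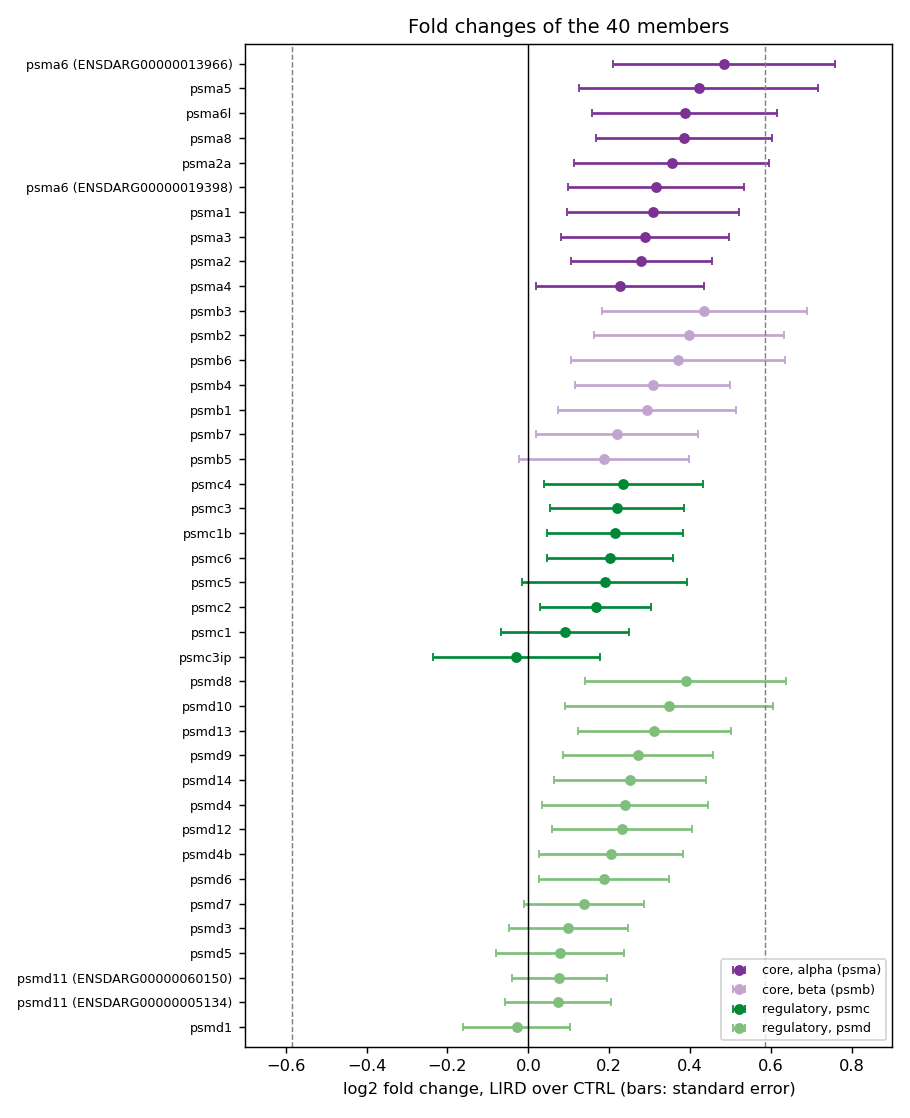
Log2 fold change of each of the 40 members, LIRD over CTRL, from edgeR, with bars of 1 standard error and dashed lines at the DEG threshold of 1.5-fold in either direction. All 17 core members and 21 of 23 regulatory members lie above 0, and none lies past the dashed line.

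The fitted values were larger for the core than for the regulatory particle. The median log2 fold change was 0.32 over the 17 core members and 0.20 over the 23 regulatory members, against 0.017 over all genes tested. Core members ranged from 0.19 for psmb5 to 0.48 for psma6 (ENSDARG00000013966), and regulatory members from -0.029 for psmc3ip to 0.39 for psmd8. By class the medians were 0.34 for alpha, 0.31 for beta, 0.20 for psmc and 0.20 for psmd genes. These are descriptions without a test, since the members share libraries. limma-voom gave medians of 0.21 for the core and 0.13 for the regulatory particle, and without LIRD replicate 1 or LIRD replicate 4 the regulatory median was 0.11, and the core median 0.21, in edgeR.

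The absence of calls went with a wide spread among the LIRD libraries. The mean log2 CPM of the core members was 6.30, 6.01, 6.29 and 6.02 in LIRD replicates 1, 2, 4 and 9, and 5.03, 4.77, 4.88 and 5.02 in LIRD replicates 5, 6, 10 and 11. In CTRL libraries it lay between 5.04 and 5.82, highest in replicates 10 and 8. LIRD libraries thus lay above the highest CTRL library or below the lowest, and none lay within the CTRL range. LIRD replicates 5 and 11, the pair close to each other in all genes, were only just below it, at 5.03 and 5.02 against 5.04. The regulatory members gave the same picture, at 5.60 to 5.92 in LIRD replicates 1, 2, 4 and 9, between 4.72 and 4.99 in LIRD replicates 5, 6, 10 and 11, and between 4.94 and 5.56 in CTRL libraries, so that here LIRD replicates 5 and 11 fell inside the CTRL range. As group values, the core averaged 5.54 ± 0.668 in LIRD and 5.32 ± 0.265 in CTRL, and the regulatory particle 5.31 ± 0.489 in LIRD and 5.20 ± 0.198 in CTRL (mean log2 CPM ± SD, n = 8 and 9).

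**Figure D2:**
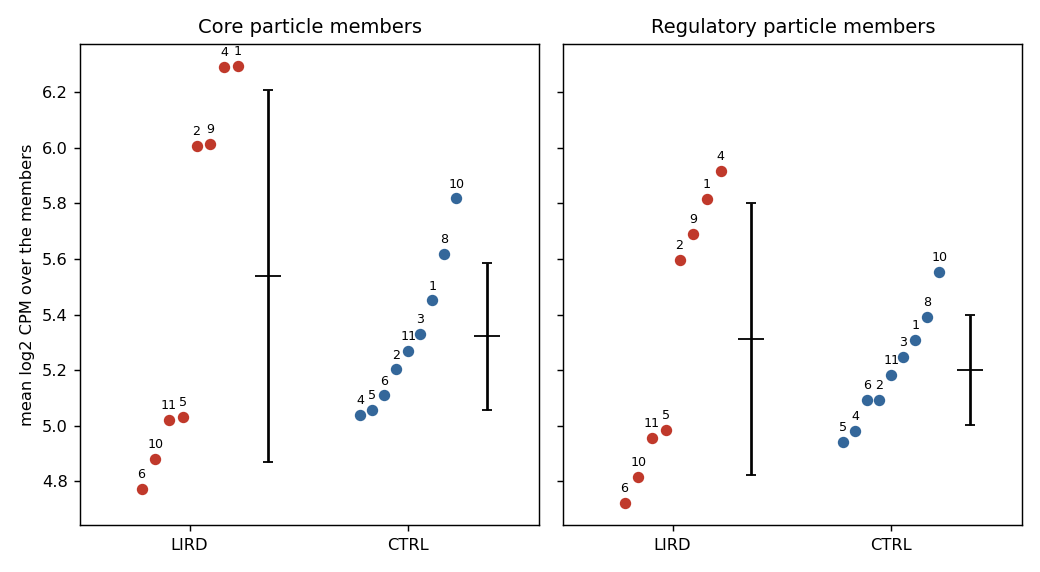
Mean log2 CPM of the 17 core and the 23 regulatory members in each library, labelled by replicate number, LIRD left and CTRL right, with the group mean and SD in black. LIRD replicates 1, 2, 4 and 9 sit above every CTRL library in both panels, and LIRD replicates 6 and 10 sit below every CTRL library.

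The division ran through nearly all members at once. In LIRD replicate 4, all 40 members were above their highest CTRL value, as were 36 in replicate 1, 30 in replicate 9 and 27 in replicate 2. Of all genes tested, 30.3% were above every CTRL library in replicate 4, 31.4% in replicate 1, 19.4% in replicate 9 and 27.2% in replicate 2. In LIRD replicate 6, 37 of 40 members were below their lowest CTRL value, as were 31 in replicate 10, 18 in replicate 11 and 15 in replicate 5. Of all genes, 19.4%, 18.1%, 10.9% and 10.3% were below every CTRL library in LIRD replicates 6, 10, 11 and 5. The summed level of the 40 members was 3293, 2729, 3461 and 2946 CPM in LIRD replicates 1, 2, 4 and 9, and 1671, 1363, 1489 and 1655 CPM in LIRD replicates 5, 6, 10 and 11, against 1623 to 2590 CPM in CTRL. In the 9 CTRL libraries the members peaked together too, with 33 of 40 at their highest CTRL value in replicate 10 and 5 in replicate 8. The share of all genes that peak in these libraries is not given, so whether this is particular to the members was not tested.

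**Figure D3:**
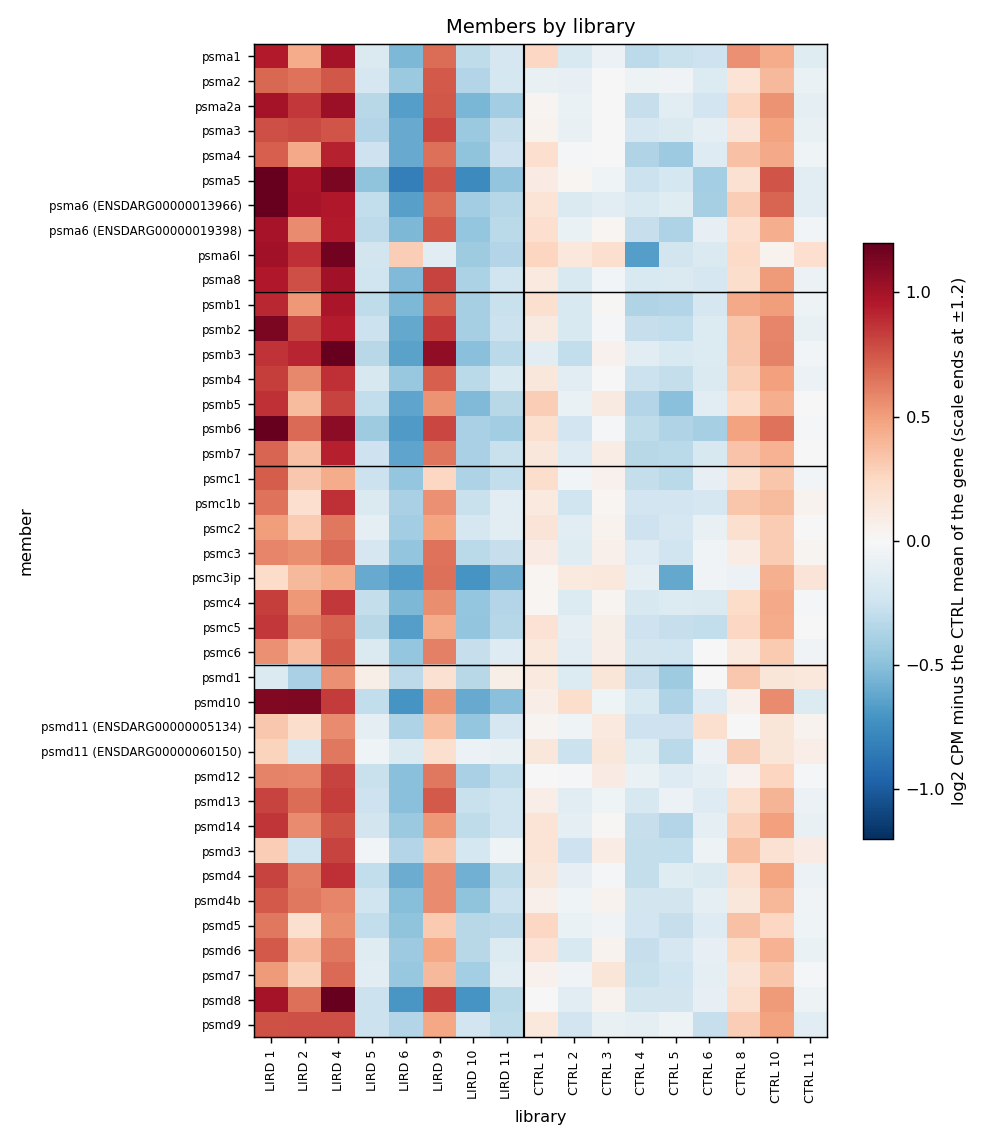
Log2 CPM of each member in each library, less the gene's mean over the CTRL libraries, with LIRD libraries on the left and lines between the alpha, beta, psmc and psmd genes. Whole columns share a colour: LIRD 1, 2, 4 and 9 are above and LIRD 5, 6, 10 and 11 below the CTRL mean in nearly every row, with psmd1, psmd3, psma6l and psmd11 (ENSDARG00000060150) as the rows where these sets overlap.

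Among the beta subunits, psmb5, psmb6 and psmb7 carry the active sites, known in mammals for cutting after hydrophobic, acidic and basic residues in that order. psmb5 had a lowest, median and highest value of 43.3, 71.4 and 124 CPM in LIRD, against 47.5, 67.2 and 91.2 CPM in CTRL. Of its 8 LIRD values, 3 were above every CTRL library and 2 below every CTRL library. The log2 fold change was 0.19 ± 0.211 (SE; FDR = 0.759), the smallest among core members, with a 95% interval from -0.23 to 0.60.

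psmb6 stood at 35.3, 66.8 and 132 CPM (lowest, median, highest) in LIRD, against 42.7, 56.0 and 88.9 CPM in CTRL. Here 4 LIRD libraries were above and 3 below the whole CTRL range, and the log2 fold change was 0.37 ± 0.265 (SE; FDR = 0.697). psmb7 reached 40.7, 66.8 and 121 CPM in LIRD, against 50.1, 63.5 and 84.4 CPM in CTRL, with a log2 fold change of 0.22 ± 0.20 (SE; FDR = 0.718). The active-site genes therefore shared the wide LIRD range, and none passed the test.

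psmb2 and psmb3, which build the same ring without an active site, had the smallest p-values among beta genes. psmb3 ranged from 38.1 to 136 CPM with a median of 78.0 in LIRD, and from 48.4 to 89.7 CPM with a median of 54.2 in CTRL, every LIRD library lying outside the CTRL range, 4 above and 4 below. Its log2 fold change was 0.44 ± 0.253 (SE; FDR = 0.697). psmb2 ranged from 31.2 to 104 CPM with a median of 61.8 in LIRD, and from 38.7 to 71.6 CPM with a median of 44.8 in CTRL (log2 fold change 0.40 ± 0.235, FDR = 0.697).

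Among the alpha subunits, psma8 had the smallest p of all members. In mammals PSMA8 is the testis form of the alpha subunit PSMA7, whereas RefSeq lists psma7 as a synonym of the zebrafish gene and no gene under the symbol psma7 was analysed here. psma8 stood at 181, 159, 187 and 163 CPM in LIRD replicates 1, 2, 4 and 9 and at 78.9, 64.4, 71.7 and 78.7 CPM in LIRD replicates 5, 6, 10 and 11, against a lowest, median and highest CTRL value of 80.9, 88.9 and 133 CPM. All 8 LIRD libraries thus lay outside the CTRL range, 4 on each side. The log2 fold change was 0.39 ± 0.217 (SE; p = 0.0918, FDR = 0.697), with a 95% interval from -0.040 to 0.81.

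The psma6 genes code for copies of 1 alpha subunit, and psma6l is a related gene. psma6 (ENSDARG00000013966) ranged from 20.96 to 97.3 CPM with a median of 39.6 in LIRD, against 25.01 to 53.5 CPM with a median of 30.2 in CTRL, and had the largest log2 fold change of the members in this fit, 0.48 ± 0.274 (SE; FDR = 0.697). psma6 (ENSDARG00000019398) ranged from 17.1 to 49.2 CPM with a median of 28.3 in LIRD, against 19.1 to 33.4 CPM with a median of 24.2 in CTRL (log2 fold change 0.32 ± 0.218, FDR = 0.697). psma6l was far lower in reads, at 1.22, 1.76 and 3.69 CPM (lowest, median, highest) in LIRD and 1.04, 1.80 and 1.97 CPM in CTRL.

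psma6l did not order the LIRD libraries as the other members did. It was above every CTRL library in LIRD replicates 1, 2, 4 and 6, where replicate 6 (2.02 CPM) had been the lowest LIRD library for the particle as a whole, and replicate 9 was at 1.49 CPM. It was the only member of the 40 above its highest CTRL value in LIRD replicate 6, by a narrow margin of 2.019 against 1.966 CPM. Its log2 fold change was 0.39 ± 0.228 (SE; FDR = 0.697).

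In the regulatory particle, psmd14 is the deubiquitinase that cuts ubiquitin chains off the substrate. It had a lowest, median and highest value of 29.6, 46.3 and 73.1 CPM in LIRD, against 31.6, 38.0 and 57.0 CPM in CTRL. LIRD replicates 1, 2, 4 and 9 were above every CTRL library and 1 LIRD library was below, and the log2 fold change was 0.25 ± 0.187 (SE; FDR = 0.699).

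psmd13 and psmd8, lid subunits beside psmd14, had the smallest p-values of the regulatory particle. psmd13 ranged from 39.5 to 99.8 CPM with a median of 68.2 in LIRD, and from 49.2 to 74.3 CPM with a median of 53.4 in CTRL. Its log2 fold change was 0.31 ± 0.188 (SE; p = 0.113, FDR = 0.697). psmd8 ranged from 25.6 to 100.2 CPM with a median of 50.7 in LIRD, and from 35.9 to 59.7 CPM with a median of 40.3 in CTRL (log2 fold change 0.39 ± 0.249, FDR = 0.697). For both genes all 8 LIRD libraries lay outside the CTRL range, 4 above and 4 below.

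The rule also caught genes that are not parts of the finished particle. psmd5, psmd9 and psmd10 code for chaperones that help assemble the regulatory particle, and psmc3ip for a factor of meiotic recombination named for its binding to PSMC3. psmd9 stood at 7.29, 10.3 and 15.9 CPM (lowest, median, highest) in LIRD, against 7.65, 8.71 and 12.9 CPM in CTRL, and psmd10 at 3.03, 5.62 and 10.8 CPM in LIRD, against 3.85, 4.78 and 7.37 CPM in CTRL. Their log2 fold changes were 0.27 ± 0.186 and 0.35 ± 0.257 (SE; FDR = 0.697 and 0.699). psmd5 had a log2 fold change of 0.078 ± 0.159 (SE; FDR = 0.868). Leaving out these 4 genes left the median of the regulatory particle at 0.20.

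The genes on the other side of 0 lay close to it. psmd1, a large scaffold subunit of the base, had 108.1, 93.0, 178 and 138 CPM in LIRD replicates 1, 2, 4 and 9 and 128, 98.2, 96.6 and 128 CPM in LIRD replicates 5, 6, 10 and 11, against 90.8, 132 and 153 CPM (lowest, median, highest) in CTRL. These sets of LIRD libraries overlapped here, as they did in psma6l, psmd3 and psmd11 (ENSDARG00000060150), and were apart in the other 36 of 40 members. The sets were drawn by the mean level of the core members themselves, so that count is a description and not a separate result. The share of all genes in which these sets are apart is not given, so whether the count is particular to the members was not tested. The log2 fold change of psmd1 was -0.028 ± 0.132 (SE; FDR = 0.944), and that of psmc3ip -0.029 ± 0.206 (SE; FDR = 0.962), with 1.56, 2.35 and 4.06 CPM (lowest, median, highest) in LIRD and 1.67, 2.59 and 3.43 CPM in CTRL.

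Several subunits are coded by more than one gene, and the share of reads taken by each copy was compared between the groups. Shares are of the summed CPM of the pair, without length correction. psma2 took 51.2% ± 3.95 of the psma2 and psma2a reads in LIRD and 51.4% ± 2.01 in CTRL, and psma6 (ENSDARG00000013966) took 58.9% ± 4.10 of the psma6 reads in LIRD and 57.1% ± 3.11 in CTRL (SD, n = 8 and 9). psmc1, an ATPase, took 56.0% ± 3.04 of the psmc1 and psmc1b reads in LIRD and 58.0% ± 1.89 in CTRL. psmd4, a ubiquitin receptor, took 45.8% ± 2.19 of the psmd4 and psmd4b reads in LIRD and 45.7% ± 1.16 in CTRL, and psmd11 (ENSDARG00000005134) took 41.7% ± 4.02 of the psmd11 reads in LIRD and 42.1% ± 2.84 in CTRL. No share differed between the groups beyond the spread between libraries, with the smallest p for psmc1 (exact permutation test, two-sided, p = 0.119, adjusted p = 0.595 over 5 pairs). The log2 fold changes of the copies were 0.28 for psma2 and 0.35 for psma2a, 0.091 for psmc1 and 0.21 for psmc1b, 0.24 for psmd4 and 0.20 for psmd4b, and 0.073 and 0.077 for psmd11 (ENSDARG00000005134 and ENSDARG00000060150), none of them past the test.

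The members varied together within the CTRL libraries, which the contrast between the groups did not enter. Over the 9 CTRL libraries, Pearson's r of a member's log2 CPM with the mean of the other 39 had a median of 0.948 and was over 0.9 in 29 of 40 members (72.5%). Of the 22463 other genes tested, 530 (2.36%) had an r over 0.9 with the mean of the members, and their median r was 0.012. psmb4, a beta subunit, followed the others most closely (r = 0.996), followed by psmd14 (0.990) and psmb2 (0.988). The loosest were psma6l (0.59), psmd11 (ENSDARG00000005134; 0.59), psmc3ip (0.653) and psmd1 (0.787). All points share the same libraries, so these values are a description.

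Core and regulatory particle varied in step from library to library, with the core moving more. Over the 9 CTRL libraries the 2 mean levels had a Pearson's r of 0.984 and a Spearman's rho of 0.967, and r was 0.979 without the 2 libraries farthest from the median. For 1 log2 unit of the regulatory particle the core changed by 1.32 units across CTRL libraries and by 1.36 units across LIRD libraries. No r is given over LIRD, whose libraries fall into separate sets. Accordingly, the difference between core and regulatory mean log2 CPM was not constant: it was 0.478, 0.408, 0.372 and 0.326 in LIRD replicates 1, 2, 4 and 9 and 0.046, 0.052, 0.065 and 0.064 in LIRD replicates 5, 6, 10 and 11, against 0.015 to 0.263 in CTRL. It averaged 0.226 ± 0.186 in LIRD and 0.122 ± 0.0792 in CTRL (SD, n = 8 and 9), a difference of 0.105 on the log2 scale that is smaller than the SD of LIRD. The sign of core less regulatory depends on which genes are averaged. Without psmc3ip, psmd5, psmd9 and psmd10 it was negative in every library, from -0.501 to -0.0231 in LIRD and from -0.511 to -0.237 in CTRL. The means were then -0.296 ± 0.208 in LIRD and -0.394 ± 0.0841 in CTRL (SD), a difference of 0.0975.

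**Figure D4:**
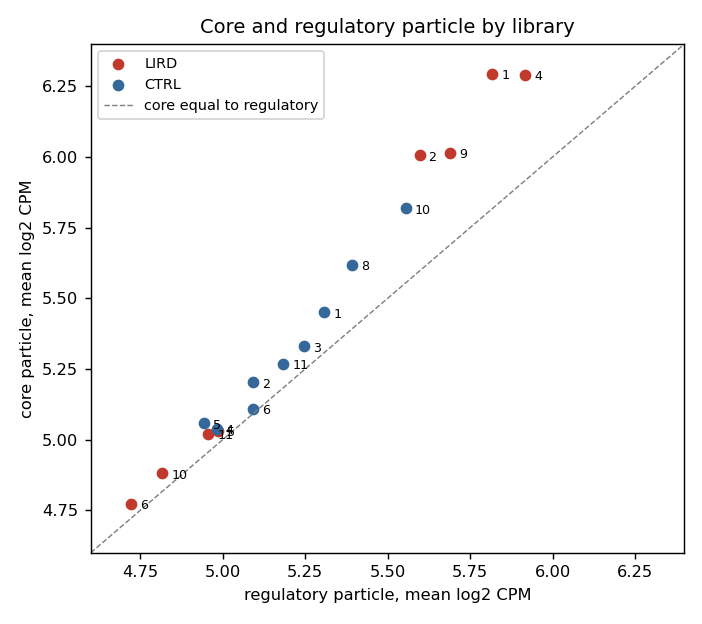
Mean log2 CPM of the core members against that of the regulatory members, 1 point per library with its replicate number, LIRD in red and CTRL in blue, with a dashed line of equality. Points of both groups follow one band that is steeper than the line, with slopes of 1.36 in LIRD and 1.32 in CTRL, and LIRD libraries occupy its 2 ends.

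The spread of single genes showed the same order. The SD of log2 CPM over the CTRL libraries had a median of 0.297 over core members, 0.228 over regulatory members and 0.213 over all genes tested, and over the LIRD libraries it was 0.652, 0.507 and 0.355 in the same order. Across the 40 members, the log2 fold change had a Pearson's r of 0.442 and a Spearman's rho of 0.495 with the SD over CTRL, a description across genes that are not independent replicates.

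The library series gave different values. In the first series, with 2 libraries a group, 24 of 40 members were DEGs, all higher in LIRD (13 core and 11 regulatory), where 17.2% of all genes were DEGs. The medians were 0.78 for the core and 0.58 for the regulatory particle, with 1.32 for psma6 (ENSDARG00000013966), 1.12 for psmb3 and 1.03 for psmb2. In the second series, with 6 LIRD and 7 CTRL libraries, 0 members were DEGs and 0 had an unadjusted p under 0.05. Of all 22511 genes tested there, 4 were DEGs, and 642 were higher and 343 lower at that p. The lack of DEGs in that series was therefore not particular to the members. Their medians were 0.12 for the core and 0.047 for the regulatory particle. The LIRD libraries of the first series are replicates 1 and 2, which are both high, whereas those of the second include replicates 4 and 9 as well as 5, 6, 10 and 11. The difference of the LIRD effect between the series, first less second, was tested as an interaction in edgeR. The difference was above 0 in 38 of 40 members, against 11277 of all 22503 genes tested. Of the members, 1 of 40 had an unadjusted p under 0.05, against 16.8% of all genes, and none passed an FDR of 0.05 (smallest FDR = 0.28).

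Other genes of the pathway were read from lists. The core's own assembly chaperones pomp, psmg1, psmg2 and psmg3 had log2 fold changes from 0.27 to 0.42 with a median of 0.33, and 0 of 4 passed an unadjusted p of 0.05. Genes listed for the regulatory particle under other names (sem1, adrm1, uchl5, usp14 and ecpas), subunits or not, had a median of 0.20, with 0 of 5 past that p. Their mean level followed the members over CTRL with r = 0.987. The list of ubiquitin genes and of the E1 enzymes that charge ubiquitin had a median of 0.23 (0 of 9). It also held the ribosomal protein genes rps27.1 and rps27.2, with log2 fold changes of 0.58 and 0.35. The median was 0.053 (0 of 6) for the VCP segregase, which pulls substrates out of complexes, and its cofactors. It was -0.047 (0 of 4) for the shuttle receptors that carry substrates to the proteasome. The mean log2 CPM of the shuttle receptors had an SD of 0.0922 in LIRD and 0.0749 in CTRL, against 0.564 in LIRD and 0.225 in CTRL for the 40 members.

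A list of regulators was read in the same way: nfe2l1, nfe2l1b, nfe2l2, nfe2l2b, ngly1 and hnrnpul1. All but hnrnpul1, which codes for an RNA-binding protein, are counterparts of factors known from mammals to drive or process the proteasome gene program. nfe2l1b, a counterpart of the mammalian factor NFE2L1, averaged 18.8 ± 1.59 CPM in LIRD and 19.7 ± 2.64 CPM in CTRL (SD, n = 8 and 9), with a log2 fold change of -0.068 ± 0.0860 (SE; FDR = 0.781 in edgeR). The gene listed as nfe2l1 had a log2 fold change of 0.028 ± 0.207 (SE; FDR = 0.965), and the 6 genes of this list, with 0 past an unadjusted p of 0.05, had a median of -0.053. Over CTRL libraries their mean level had an r of 0.183 with that of the members.

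The genes grouped here as immune forms, psmb8 to psmb13, were set beside the constitutive genes. They include beta subunits that replace the active ones in cells under interferon. Of the 7 immune forms in the table, 5 passed the filter on low counts. All 5 were higher in LIRD at an unadjusted p under 0.05 in edgeR, against 4.90% of all genes, but none passed an FDR of 0.05 (0.381 to 0.63). All but psmb10 were low in reads, with CTRL means of 0.452 CPM for psmb8, 0.523 for psmb9, 0.391 for psmb12 and 0.252 for psmb13a. The lowest count of psmb13a in a library was 12. psmb8, which in mammals takes the place of psmb5, stood at 0.193, 0.987 and 2.59 CPM (lowest, median, highest) in LIRD, against 0.258, 0.456 and 0.827 CPM in CTRL, with a log2 fold change of 1.32 ± 0.404 (SE; FDR = 0.381). psmb9, which in mammals takes the place of psmb6, had a log2 fold change of 0.89 ± 0.297 (SE; FDR = 0.45), and psmb13a one of 1.29 ± 0.443 (SE; FDR = 0.474).

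The immune forms had another order of LIRD libraries. LIRD replicate 6, the lowest for the constitutive members, had 1.82 CPM of psmb8, second to 2.59 CPM in LIRD replicate 4, and 1.19 CPM of psmb9, above every CTRL library (0.334 to 0.743 CPM). psmb10 was the exception among them: at 12.2, 8.70, 8.28 and 7.98 CPM in LIRD replicates 1, 2, 4 and 9 and 3.88, 3.95, 4.09 and 3.87 CPM in LIRD replicates 5, 6, 10 and 11, against 3.96 to 6.51 CPM in CTRL, it had the division of the constitutive genes. psme2, a subunit of the activator that pairs with the immune forms, had 6.88 CPM in LIRD replicate 6 against at most 4.30 CPM in CTRL. Its log2 fold change was 0.58 ± 0.20 (SE; p = 0.0098, FDR = 0.475).

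The division of the LIRD libraries was shared with other complexes and with the mean levels of skin and muscle markers. The mean log2 CPM of 78 ribosomal protein genes was 10.5, 10.0, 10.0 and 9.76 in LIRD replicates 1, 2, 4 and 9 and 8.73, 8.32, 8.76 and 8.71 in LIRD replicates 5, 6, 10 and 11, against 8.56 to 9.85 in CTRL, and their median log2 fold change was 0.41. The 8 genes of the cytosolic chaperonin, which folds actin and tubulin, had a median of 0.21. Over CTRL libraries the members' mean level had an r of 0.839 with the ribosomal genes (rho = 0.683), which was 0.411 without the 2 libraries farthest from the median, and an r of 0.923 with the chaperonin (rho = 0.95), which was 0.968 without 2. With the ribosomal score as a covariate, the median of the core was 0.035 and that of the regulatory particle 0.0081, with 25 of 40 members above 0.

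**Figure D5:**
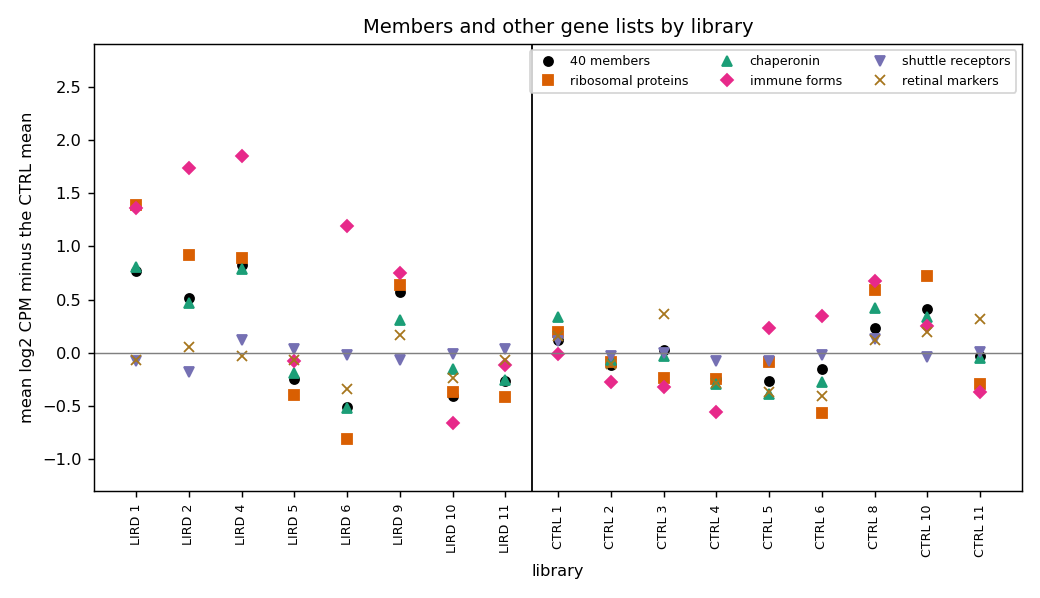
Mean log2 CPM of 6 gene lists in each library, less the list's mean over the CTRL libraries, LIRD libraries on the left and CTRL on the right. Members, ribosomal and chaperonin genes are all above 0 in LIRD 1, 2, 4 and 9 and below 0 in LIRD 5, 6, 10 and 11, and the immune forms are also above 0 in LIRD 6. The mean of the shuttle receptors, whose single genes do not move alike, stays near 0.

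The 10 genes outside the members whose level was most like their mean, by r of deviations from the group means over all 17 libraries, were ppib, pomp, ndufc2, mif, lsm10, h2az2, polr2c, ssr4, set and ssr3, with r between 0.989 and 0.995. The chaperone pomp, needed to build the core particle, came second (r = 0.992), and ppib, a prolyl isomerase of the endoplasmic reticulum, first (r = 0.995). Since LIRD libraries fall into separate sets, r over CTRL alone is the closer description: it was 0.994 for pomp and 0.983 for ppib, and at least 0.931 for all 10. None of the 10 was a DEG.

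Technical and tissue measures also differed between the LIRD libraries. TMM factors were 0.840, 0.941, 0.824 and 0.880 in LIRD replicates 1, 2, 4 and 9 and 1.05, 1.16, 1.06 and 1.05 in LIRD replicates 5, 6, 10 and 11, against 0.908 to 1.14 in CTRL. Total counts were 150347385, 97506021, 129045488 and 108112367 in LIRD replicates 1, 2, 4 and 9 and 117988602, 102924085, 112042767 and 106742824 in LIRD replicates 5, 6, 10 and 11, so that these sets overlapped. Their log2 had an r of 0.483 with the members' level over the LIRD libraries and of 0.062 over the CTRL libraries. Of 6 erythroid markers 5 were higher at an unadjusted p under 0.05, with a summed level of 409 to 1372 CPM in LIRD and 256 to 507 CPM in CTRL, and of 15 retinal markers 2 were higher and 3 lower, with 13940 to 27660 CPM in LIRD and 13510 to 24850 CPM in CTRL. The skin list summed to 5951 to 19010 CPM in LIRD and 8304 to 14550 CPM in CTRL (0 of 5 past that p), the pancreas list to 1018 to 6107 CPM in LIRD and 438 to 4259 CPM in CTRL (0 of 7), the lens list to 516 to 3388 CPM in LIRD and 534 to 3734 CPM in CTRL (0 of 4), and the muscle list to 3182 to 8087 CPM in LIRD and 4313 to 6941 CPM in CTRL (1 of 7, myhz1.1, lower). Of all genes tested, 4.90% were higher and 2.74% lower at that p. No marker in these lists was at 0 in any library. The mean levels of the skin and muscle lists divided the LIRD libraries as that of the members did. Among muscle genes this held for ckma, ckmb and the tnnt3 genes, whereas actc1b, myhz1.1 and myhz2 overlapped between the sets. myhz2 had 323, 407, 438 and 327 CPM in LIRD replicates 1, 2, 4 and 9 and 472, 421, 518 and 449 CPM in LIRD replicates 5, 6, 10 and 11. The mean log2 CPM of the skin list was 10.99 to 11.77 in LIRD replicates 1, 2, 4 and 9 and 9.87 to 10.71 in LIRD replicates 5, 6, 10 and 11, against 10.5 to 11.38 in CTRL, and that of the muscle list 8.94 to 9.42 in LIRD replicates 1, 2, 4 and 9 and 8.18 to 8.63 in LIRD replicates 5, 6, 10 and 11, against 8.59 to 9.32 in CTRL. The retinal list parted narrowly, at 8.488 to 8.724 and 8.21 to 8.486 in the same LIRD sets, against 8.15 to 8.92 in CTRL, and the erythroid, pancreas and lens lists overlapped between these sets. Over CTRL, r with the members' level was 0.405 for erythroid, 0.692 for retinal, 0.673 for skin, 0.345 for pancreas, 0.277 for lens and 0.854 for muscle markers, the last being 0.429 without 2 libraries. Their part in the members' values was not tested, and in bulk tissue fewer cells of a type and less RNA per cell cannot be told apart.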

How the data were processed

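Per the labels and the paper, poly(A)+ RNA was sequenced with strand-specific, paired-end libraries, and the authors deposited raw counts per gene, not normalized, made with featureCounts on exons from trimmed reads that STAR had placed on GRCz11. Versions given in the submitters' processing notes were Trimmomatic 0.39, STAR 2.7.9a and Subread 2.0.1, and the paper gives other versions of STAR and Subread. The table holds 17 of 23 listed samples, and the other 6 were not analysed here. The paper states that samples lying apart from their replicates in a principal component analysis of expression were left out. Its figures use 9 CTRL and 8 LIRD libraries, as the table does. Whether the other 6 samples were left out for that reason is not stated. Symbols came from a table of gene identifiers (23499 of 25281 matched). PSMD2 was not analysed here.

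From the counts, edgeR 4.0.16 (R 4.3.3) gave TMM factors, CPM, log2 CPM (prior count 2) and its quasi-likelihood test, after filterByExpr (22503 genes), with Benjamini-Hochberg FDR over all genes, as LIRD over CTRL with no covariate. The SE is the size of the log2 fold change over the square root of F, and 95% intervals are 1.96 SE. The main alternatives were DESeq2 1.42.0, limma-voom (limma 3.58.1), other filters, normalization, covariates and library sets. The interaction with the library series, and the regulatory median and the core less regulatory difference without 4 genes, were added after seeing the data. Copies were compared by exact permutation tests, and tables were made with Python 3.11.15. The edgeR, DESeq2 and limma-voom fits of LIRD over CTRL with no covariate were run beforehand on simulated counts with known changes. The fits with other filters, normalization, covariates or library sets were not.

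Members and lists were chosen with earlier results of these data known. Genes named are psmb5, psmb6, psmb7 and psmd14, the 5 core and 5 regulatory members of smallest p, every copy of a duplicated subunit, and, of other lists, the 3 of smallest p, psmb8 and the nfe2l1 genes. psmd1, psmc3ip, psmd5, psmb10, psme2 and psmb4 were added after their values were seen. No sequences, coordinates or transcript lengths were used.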

Additional observations from a re-analysis of the deposited data

Results flagged for a closer look

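A single value was flagged within its group. psmb10, an immune form of the active subunit psmb7, was at 6.51 CPM in CTRL replicate 10, against 3.96 to 5.25 CPM in the other CTRL libraries. The gap was past Dixon's 95% limit for a gap at an end of a group, by a margin that is not given. CTRL replicate 10 was also the highest CTRL library for 33 of the 40 constitutive members, a count given without the share over all genes. Of 70 groups of values looked at in this way 1 was past the limit, where chance alone flags about 1 in 20 groups.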

How the results depend on the processing

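The count of members past the DEG thresholds was 0 under all alternatives run except the first library series alone (24 of 40), and it was also 0 with a minimum absolute log2 fold change of 1 or with none. Outside the first series few of all genes were DEGs, from 0 of 22499 with the replicate block to 78 of 24738 in DESeq2. A count of 0 members there does not set them apart from other genes. The count higher at an unadjusted p under 0.05 was 34 in the first series alone (21.3% of all genes) and 0 to 8 with each library left out (8 without LIRD replicate 6, 5 without LIRD replicate 10, and 1 each without LIRD replicate 5, LIRD replicate 11 or CTRL replicate 10), and the count lower was 0 throughout.

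The core median of 0.32 was 0.78 in the first series, 0.12 in the second, 0.035 with the ribosomal score as a covariate, 0.21 in limma-voom and 0.21 to 0.40 with each library left out. The regulatory median of 0.20 was 0.58 in the first series, 0.047 in the second, 0.0081 with the ribosomal score, 0.13 in limma-voom and 0.11 to 0.28 with each library left out. The causes were not tested.

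No pairing by replicate number was seen, as the correlations of deviations of same-numbered libraries ran from -0.56 to 0.416. Such correlations cannot tell whether same-numbered libraries were prepared together, since the LIRD libraries fall into separate sets. In a fit with the replicate number as a block (14 libraries), the medians were 0.19 and 0.10, against 0.33 and 0.17 on the same libraries with no block. The block fit called 0 members, but also 0 of all 22499 genes, so its count of calls cannot single out the members.

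Some log2 fold changes changed sign. With the ribosomal score as a covariate they were -0.015 for psmd10, -0.0077 for psmd4b, -0.021 for psmd4, -0.077 for psmc1, -0.0069 for psmb7, -0.064 for psmb5 and -0.036 for psmd11 (ENSDARG00000005134). With no covariate these genes had 0.35, 0.20, 0.24, 0.091, 0.22, 0.19 and 0.073, in the same order. In the second series they were 0.040 for psmd1 and -0.066 for psmc1, in the first 0.25 for psmc3ip, with near-identical libraries added up 0.053 for psmc3ip, and without the block 0.012 for psmd1. With each library left out, psmd1 ran from -0.13 to 0.018, psmc3ip from -0.16 to 0.049, psmc1 from -0.024 to 0.16, psmd11 from -0.012 to 0.14 (ENSDARG00000005134) and from -0.020 to 0.12 (ENSDARG00000060150), and nfe2l1 from -0.063 to 0.14. The search of promoters for motifs was not run. The lowest count of any member in a library was 121, and what limits the precision of these values was not tested.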
